A study of Mus musculus with 12 samples.

Results

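The genes described here are ATF4, the transcription factors and regulators that work with it, its stress and amino acid synthesis targets, and the cytosolic aminoacyl-tRNA synthetases. They were chosen by name, as a list of 41 genes matched to array probes through current or older symbols. Earlier results of these data were known when the list was chosen. Of these, 39 had at least 1 probe and 83 probes in all. Probes count as measured where the detection p, the chance of such a signal from background, is under 0.05 on 3 or more of 12 arrays. That left 62 probes of 35 genes, out of 10211 genes measured across the series.

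The cells were OP9 cells, a stromal line that supports blood cell growth in culture, from newborn calvaria (skull bone) of B6C3F1 op/op mice, a strain without working colony stimulating factor 1. Total RNA was hybridised to Illumina BeadChips, with 3 arrays in each of 4 groups: vehicle, labelled 0 h, and imatinib at 32, 64 and 96 h. Imatinib is a tyrosine kinase inhibitor with ABL, KIT and the PDGF receptors among its targets; its dose is not given in the sources used here. All 4 groups share the line and strain, and since vehicle is labelled at a single time, length of culture and drug cannot be told apart. The design text can also be read as vehicle cultures kept for each time; the sample labels were followed, so the time of the vehicle cultures is uncertain in every comparison with vehicle.

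ATF4 is the main transcription factor of the integrated stress response. Kinases that sense amino acid shortage, unfolded proteins, haem shortage or double-stranded RNA phosphorylate the initiation factor eIF2, which slows most translation and favours translation of the ATF4 message itself. ATF4, often with C/EBP proteins, then drives genes for amino acid synthesis and transport and for charging tRNAs with amino acids, the step that the synthetases catalyse.

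The element that ATF4 and C/EBP proteins bind carries the core TGATGNAA, so the promoters that hold it are shown before the array values. RefSeq windows of GRCm38.p6, from 250 bases before to 50 after each transcript start, were in the table used here for 32 of the 41 genes. The core, searched on both strands (its reverse complement is TTNCATCA), was in the window of 12 of these 32 genes (37.5%), against 1219 of 27025 genes with a window (4.51%). The form TGATGCAA was in 9 of the 32 (28.1%), against 279 of 27025 (1.03%). It is contained in the first motif, so the counts overlap. The genes were listed because ATF4 is known to regulate many of them, so these shares describe the list. By role, the core was in 3 of 6 transcription factors and regulators, 2 of 4 stress genes, 2 of 9 amino acid synthesis genes and 5 of 13 synthetases. Matches in 11 of these genes are given on the gene's own strand with 10 bases on either side and the 8 matching bases in capitals.

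Chac1, chr2:119351039-119351066, plus strand: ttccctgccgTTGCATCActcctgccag
Nupr1, chr7:126625563-126625590, minus strand: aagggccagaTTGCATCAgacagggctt
Trib3, chr2:152344029-152344056, minus strand: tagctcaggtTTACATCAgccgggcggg
Atf3, chr1:191183426-191183453, minus strand: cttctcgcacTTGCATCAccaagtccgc
Vldlr, chr19:27216810-27216837, plus strand: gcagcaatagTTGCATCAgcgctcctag
Asns, chr6:7693215-7693242, minus strand: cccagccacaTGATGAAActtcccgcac
Pycr1, chr11:120643834-120643861, minus strand: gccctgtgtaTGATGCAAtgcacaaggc
Tars, chr15:11399656-11399683, minus strand: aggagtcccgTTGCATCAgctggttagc
Gars, chr6:55037961-55037988, plus strand: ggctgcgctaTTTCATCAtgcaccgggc
Iars, chr13:49682127-49682154, plus strand: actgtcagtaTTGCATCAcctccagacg
Yars, chr4:129189896-129189923, plus strand: cgagctcagcTGATGCAAcccgacggga

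Chac1 and Nupr1 had the smallest p-values of the measured members at 96 h and both hold a match upstream of the start, 193 and 110 bases before it. Their 250 upstream bases are therefore shown whole, 5′ to 3′, with the match in capitals.

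Chac1, chr2:119350992-119351241, plus strand: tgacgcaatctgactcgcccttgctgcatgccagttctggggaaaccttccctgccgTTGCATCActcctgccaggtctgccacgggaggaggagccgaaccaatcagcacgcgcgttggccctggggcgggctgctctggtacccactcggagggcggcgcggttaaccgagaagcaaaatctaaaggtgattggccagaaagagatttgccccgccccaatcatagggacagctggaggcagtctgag
Nupr1, chr7:126625471-126625720, minus strand: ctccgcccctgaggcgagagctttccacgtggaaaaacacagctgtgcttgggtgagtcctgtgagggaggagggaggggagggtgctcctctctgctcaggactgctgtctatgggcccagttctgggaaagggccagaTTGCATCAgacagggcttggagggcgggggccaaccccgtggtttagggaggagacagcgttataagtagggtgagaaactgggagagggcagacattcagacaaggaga

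Other motifs gave fewer matches. The cAMP response element TGACGTCA was in 1 of 32 windows, that of Ppp1r15a (3.12%), against 549 of 27025 (2.03%). TGACGNAA was in 2 of 32, those of Atf3 and Chac1 (6.25%), against 495 of 27025 (1.83%). The endoplasmic reticulum stress element (ERSE) was in 0 of 32, against 37 of 27025 (0.137%). None of these is a form of the TGATGNAA core, both strands were searched, and a match or its absence says only which letters stand in the window.

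The arrays were alike in signal, with median intensities of 104 to 112 and 16162 to 17332 probes detected on each. Vehicle and 96 h arrays carry 1 array label and 32 h and 64 h arrays another, so 96 h against vehicle and 64 h against 32 h are comparisons within a label. For 32 h or 64 h against vehicle, array label and group cannot be told apart. The arrays of 32 h replicate 3 and 64 h replicate 3 stood apart from the rest on the third principal component (scores of -20.4 and 20.2, with the other 10 arrays between -5.52 and 8.77). Of 12 stromal markers 11 were kept, and their summed intensity ran between 22300 and 24200 in vehicle, 25300 and 26500 at 32 h, 32900 and 35700 at 64 h, 35900 and 36600 at 96 h; Thy1 was not kept. At 96 h against vehicle 3 of the 11 rose (Cxcl12, Itgb1 and Col3a1) and 3 fell: Cd44 (log2 change -1.35, limma adjusted p = 5.44e-07), Vim (-0.87, adjusted p = 0.000158) and Eng (-0.66, adjusted p = 0.0334). Over all measured genes 7.51% rose and 7.37% fell in this comparison. Second kept probes of Itgb1 (-0.004, adjusted p = 0.993) and Col3a1 (0.05, adjusted p = 0.901) did not pass, while the other kept Cxcl12 probes rose. Cxcl12 (2.18, adjusted p = 4.14e-09) carried the sum, which without it lay between 14700 and 15800 on the imatinib arrays and between 17700 and 19700 in vehicle. Of 4 haematopoietic and B lymphoid markers with a probe 1 was kept, Ms4a1, and the leukocyte marker Ptprc was not. The 3 kept myeloid markers had sums between 109 and 137 in vehicle, 141 and 156 at 32 h, 213 and 234 at 64 h, 268 and 308 at 96 h. Among them Lyz2 rose at 96 h (log2 change 1.93, limma adjusted p = 3.5e-07), while Csf1r and Adgre1 did not pass. Of endothelial, epithelial and erythroid markers 2, 3 and 1 were kept, and 0 passed at 96 h. The epithelial sums lay between 79.7 and 89.1 in vehicle and between 104 and 108 at 96 h. The erythroid marker lay between 21.3 and 24.3 and between 24.4 and 46.9, and the endothelial sums of these groups overlapped. The part of these marker shifts in the results below was not tested, and in bulk RNA fewer expressing cells and less RNA per cell cannot be told apart.

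At 96 h of imatinib against vehicle, 10 of the 35 measured members fell and 1 rose. The genes that fell were Nupr1, Chac1, Aldh18a1, Kars, Trib3, Cth, Vars, Ddit3, Eprs and Psat1, and the gene that rose was Ppp1r15a. The share that fell was 28.6%, where 7.37% of all 10211 measured genes fell, and the share that rose was 2.86%, where 7.51% of all genes rose. The median log2 change of the 35 was -0.26 against 0.00 over all genes, and 27 of the 35 were negative. In 22 of them (62.9%) the imatinib and vehicle arrays did not overlap, against 33.3% of all genes. Calls are at an adjusted p under 0.05 from limma over all 18897 kept probes, on log2 intensity. Nothing in the labels says whether the 3 arrays of a group came from separate cultures, so each p-value rests on the spread between these arrays, which may be technical.

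**Figure D1:**
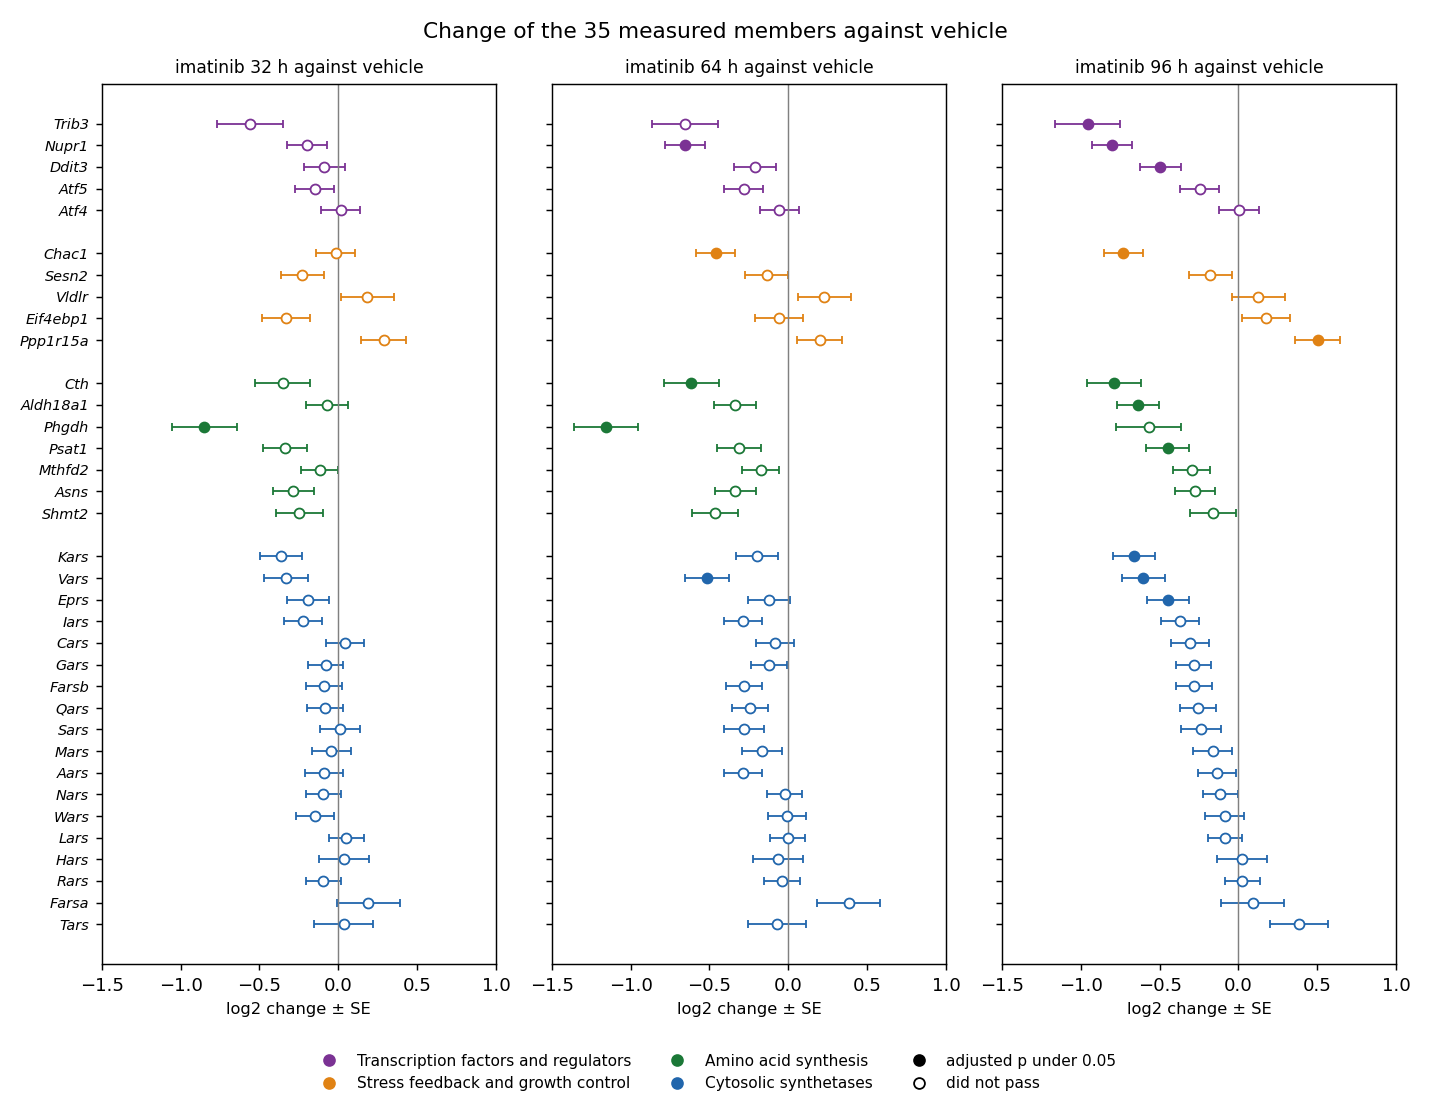
Log2 change of each of the 35 measured members against vehicle at 32, 64 and 96 h of imatinib (x axis, with the SE of the limma fit as bars), grouped by role down the y axis; filled points passed an adjusted p of 0.05. At 96 h 10 filled points lie left of 0 and 1, Ppp1r15a, lies right of it, and Atf4 lies at 0.00; Cth is drawn at its measured value, which at 96 h is below detection.

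Among the transcription factors and regulators, 3 of 5 measured genes fell at 96 h, 0 rose, and the median log2 change was -0.49 (range -0.96 to 0.00). Atf3 had 1 probe, detected on 0 of 12 arrays. Atf4 itself read log2 intensities of 11.77, 11.93 and 12.08 in vehicle, 12.01, 12.03 and 11.79 at 32 h, 11.76, 11.86 and 11.98 at 64 h and 11.99, 11.94 and 11.86 at 96 h. All 4 groups overlapped on this probe, the brighter, and the change at 96 h was 0.00 ± 0.12 (SE, adjusted p = 0.992). A second Atf4 probe changed by -0.06 ± 0.17 at 96 h (adjusted p = 0.872). On that probe the 64 h arrays (highest 7.62) lay below all vehicle arrays (lowest 7.72) and all 32 h arrays (lowest 7.73). They overlapped the 96 h arrays, and the probe did not pass at 64 h against vehicle or against 32 h. ATF4 is controlled largely through translation of its message, which these arrays do not measure.

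Nupr1 encodes a small chromatin-associated protein induced by stress. It read 10.20, 10.18 and 10.44 in vehicle, 10.19, 9.97 and 10.05 at 32 h, 9.62, 9.45 and 9.77 at 64 h and 9.46, 9.55 and 9.38 at 96 h. Every 64 h and 96 h array lay below every vehicle and 32 h array. The mean was 9.47 ± 0.08 at 96 h and 10.27 ± 0.15 in vehicle (SD, n = 3 each), a log2 change of -0.80 ± 0.13 or 1.75-fold lower (limma adjusted p = 0.000434). At 64 h it was lower than vehicle by a log2 change of -0.66 ± 0.13 (adjusted p = 0.00297).

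Trib3 encodes a pseudokinase that restrains ATF4 and the transcription factor CHOP. It read 6.55, 6.58 and 6.37 in vehicle, 5.65, 6.12 and 6.06 at 32 h, 5.80, 6.08 and 5.65 at 64 h and 5.25, 6.11 and 5.26 at 96 h. All 9 imatinib arrays lay below all 3 vehicle arrays, and the second 96 h array lay well above the other two. The change at 96 h was -0.96 ± 0.21, or 1.94-fold lower (adjusted p = 0.0057), and at 64 h it was -0.66 ± 0.21 (adjusted p = 0.0552), short of the threshold.

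Ddit3, which encodes CHOP, a C/EBP family factor of prolonged stress, read 7.34, 7.53 and 7.35 in vehicle, 7.56, 7.11 and 7.30 at 32 h, 7.34, 7.07 and 7.18 at 64 h and 6.96, 6.88 and 6.90 at 96 h. The 96 h arrays were close together and lay below all 9 others. The change was -0.49 ± 0.13, or 1.41-fold lower (limma adjusted p = 0.0211), and a second probe gave -0.47 ± 0.16 (adjusted p = 0.0716). The Ddit3 call was lost without the second vehicle array, the second 96 h array or the third 96 h array (adjusted p up to 0.0901). Atf5, a factor related to ATF4, changed by -0.24 ± 0.12 (adjusted p = 0.235).

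**Figure D2:**
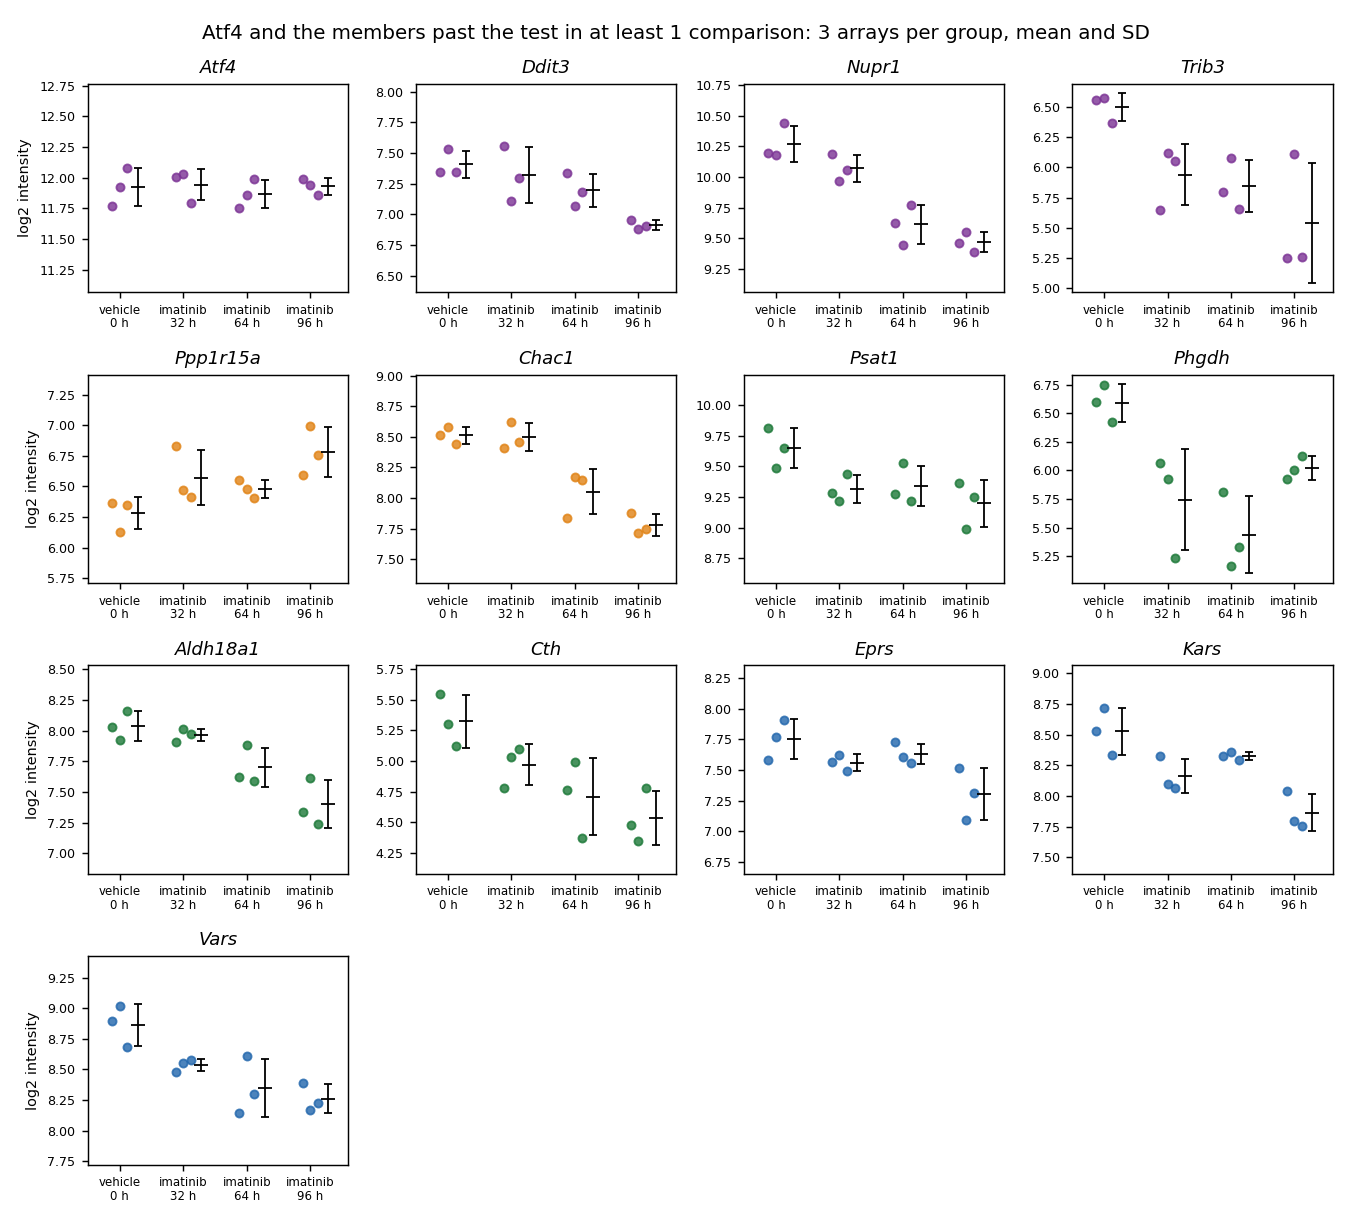
Log2 intensity (y axis) of Atf4 and of the 12 members that passed in at least 1 comparison, in vehicle at 0 h and after 32, 64 and 96 h of imatinib (x axis), with 1 point per array and the mean and SD of 3 arrays beside them. Every 96 h array lies outside the range of vehicle in the 12 called members, and the groups overlap for the Atf4 probe shown, the brighter.

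The stress feedback and growth control genes moved both ways: of 5 measured, 1 fell and 1 rose at 96 h, and their median change was 0.13. Chac1, an enzyme that degrades glutathione, read 8.51, 8.58 and 8.44 in vehicle, 8.41, 8.62 and 8.46 at 32 h, 7.84, 8.17 and 8.14 at 64 h and 7.88, 7.72 and 7.75 at 96 h. The vehicle and 32 h arrays overlapped, and all 64 h and 96 h arrays lay below them. The mean was 7.78 ± 0.09 at 96 h and 8.51 ± 0.07 in vehicle (SD, n = 3 each), a log2 change of -0.73 ± 0.12 or 1.66-fold lower (limma adjusted p = 0.000849). At 64 h the change was -0.46 ± 0.12 (adjusted p = 0.0254) and at 32 h -0.02 ± 0.12 (adjusted p = 0.97).

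Ppp1r15a encodes GADD34, which directs protein phosphatase 1 to eIF2 and so ends the response. It read 6.37, 6.13 and 6.35 in vehicle, 6.83, 6.47 and 6.41 at 32 h, 6.55, 6.48 and 6.41 at 64 h and 6.60, 6.997 and 6.76 at 96 h. All 9 imatinib arrays lay above the vehicle arrays. It rose at 96 h by 0.50 ± 0.14, or 1.42-fold (limma adjusted p = 0.0298). The call was lost when any vehicle array, the second 96 h array or the third 96 h array was left out (adjusted p up to 0.13). Sesn2, a stress-induced inhibitor of mTORC1, changed by -0.18 (adjusted p = 0.463), Eif4ebp1, a repressor of cap-dependent translation, by 0.17 (adjusted p = 0.531), and the lipoprotein receptor gene Vldlr by 0.13 (adjusted p = 0.703).

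All 7 measured amino acid synthesis genes were lower on average at 96 h than in vehicle, and 3 of them fell by the test (median -0.45, range -0.64 to -0.16, with Cth at the bound given below). Pycr1 had no probe, and Psph and Cbs were not kept. Aldh18a1, which makes the proline precursor from glutamate, read 8.03, 7.92 and 8.16 in vehicle, 7.91, 8.01 and 7.97 at 32 h, 7.63, 7.89 and 7.59 at 64 h and 7.34, 7.62 and 7.24 at 96 h. Its 64 h and 96 h arrays lay below the vehicle arrays, with a change at 96 h of -0.64 ± 0.13 or 1.56-fold lower (limma adjusted p = 0.00396).

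Cth, the last enzyme of cysteine synthesis from homocysteine, read 5.55, 5.31 and 5.12 in vehicle, 4.78, 5.03 and 5.10 at 32 h, 4.76, 4.99 and 4.37 at 64 h and 4.48, 4.35 and 4.78 at 96 h. It was detected on 3, 2, 1 and 0 arrays in that order, so its 96 h level is only a bound. Set against the lowest detected signal of each array, or its own signal where that was higher, it was at least 1.39-fold lower at 96 h. The bound itself was not tested. Limma's adjusted p of 0.00602 is for the measured difference, which uses 96 h values below detection. At 64 h, with 1 array detected, its measured change was -0.62 ± 0.17 (adjusted p = 0.0316).

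The serine pathway genes followed different courses. Phgdh, the first enzyme of serine synthesis, read 6.60, 6.75 and 6.42 in vehicle, 6.07, 5.93 and 5.24 at 32 h, 5.81, 5.17 and 5.33 at 64 h and 5.93, 6.01 and 6.13 at 96 h. All imatinib arrays lay below the vehicle arrays, and the lowest values were at 32 h and 64 h. Those arrays carry 1 array label and the vehicle and 96 h arrays another, so label and time cannot be told apart in this course. Its change was -0.85 ± 0.20 at 32 h (1.80-fold lower, limma adjusted p = 0.0303), -1.16 ± 0.20 at 64 h (2.23-fold lower, adjusted p = 0.00151) and -0.57 ± 0.20 at 96 h (adjusted p = 0.0835). The 32 h call was lost without any 1 of the vehicle arrays or without the third 32 h array, the lowest of the 3 and 1 of those that stood apart (adjusted p up to 0.133).

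Psat1, the next enzyme of serine synthesis, read 9.81, 9.48 and 9.65 in vehicle, 9.28, 9.21 and 9.44 at 32 h, 9.27, 9.52 and 9.22 at 64 h and 9.36, 8.99 and 9.25 at 96 h. The 96 h arrays lay below the vehicle arrays and overlapped those of 32 h and 64 h. The change at 96 h was -0.45 ± 0.14, or 1.37-fold lower (limma adjusted p = 0.0452). That call stood in 9 of 17 alternatives and was lost, among others, without the first or the third vehicle array or the second or the third 96 h array (adjusted p up to 0.179). Shmt2 and Mthfd2, the mitochondrial enzymes that take a carbon from serine into the folate pool, changed by -0.16 (adjusted p = 0.548) and -0.30 (adjusted p = 0.118) at 96 h.

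Asns, which makes asparagine, had 3 kept probes that differed in size. The brightest changed by -0.27 ± 0.13 at 96 h (adjusted p = 0.193) and another by -0.29 (adjusted p = 0.0955), while the last fell by 0.67 on the log2 scale (adjusted p = 0.0022). That probe was also lower at 32 h (-0.65, adjusted p = 0.00935) and at 64 h (-0.65, adjusted p = 0.00339). A second Mthfd2 probe likewise fell at 96 h (-0.55, adjusted p = 0.0144) and at 32 h (-0.58, adjusted p = 0.0284).

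**Figure D3:**
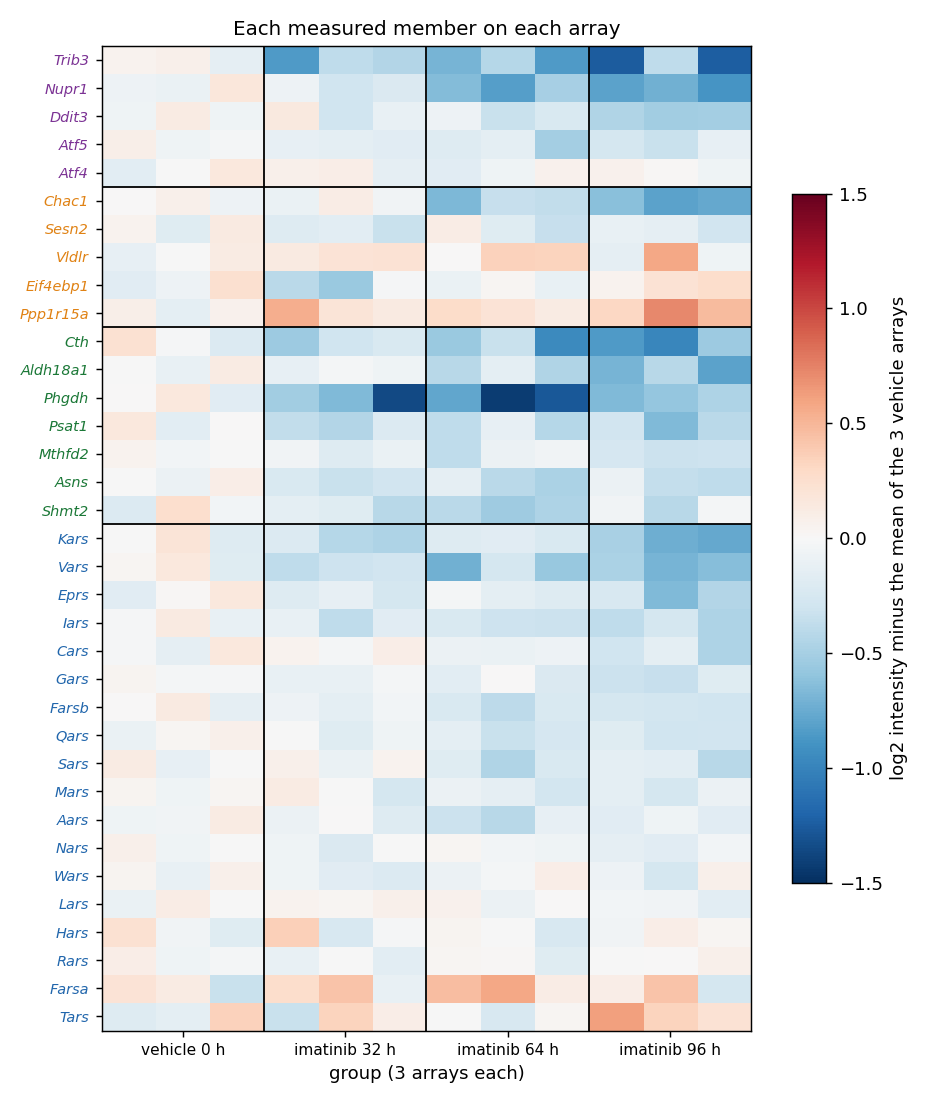
Log2 intensity of each of the 35 measured members on each array, minus its mean over the 3 vehicle arrays (colour, blue lower and red higher), with arrays along the x axis by group and genes down the y axis by role. Blue covers most of the amino acid synthesis rows from 32 h on, and the Phgdh row is darkest at 32 h and 64 h. The arrays of those times carry an array label other than that of vehicle and 96 h. Among the synthetase rows Kars and Vars are blue on every 96 h array while Tars is red on all 3.

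Of the cytosolic synthetases 18 of 20 were measured, and at 96 h 3 fell, 0 rose and 14 had a negative change (median -0.20, range -0.66 to 0.39). Dars had no probe, and Yars was not kept. Kars, the lysyl-tRNA synthetase, read 8.53, 8.72 and 8.33 in vehicle, 8.32, 8.10 and 8.07 at 32 h, 8.33, 8.36 and 8.29 at 64 h and 8.04, 7.79 and 7.76 at 96 h. The 96 h arrays lay below all 9 others. The mean was 7.86 ± 0.15 at 96 h and 8.53 ± 0.19 in vehicle (SD, n = 3 each), a change of -0.66 ± 0.13 or 1.58-fold lower (limma adjusted p = 0.00295), and a second probe fell by 0.50 (adjusted p = 0.047).

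Vars, the valyl-tRNA synthetase, read 8.89, 9.02 and 8.68 in vehicle, 8.48, 8.55 and 8.57 at 32 h, 8.14, 8.61 and 8.30 at 64 h and 8.39, 8.17 and 8.23 at 96 h. All imatinib arrays lay below the vehicle arrays. The change was -0.60 ± 0.14 at 96 h (1.52-fold lower, limma adjusted p = 0.00831) and -0.52 ± 0.14 at 64 h (adjusted p = 0.0249). A second probe fell in the same comparisons, by 0.57 at 96 h (adjusted p = 0.0104) and 0.46 at 64 h (adjusted p = 0.0413).

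Eprs, which charges tRNAs with glutamate and proline, read 7.58, 7.77 and 7.91 in vehicle, 7.56, 7.63 and 7.49 at 32 h, 7.72, 7.61 and 7.56 at 64 h and 7.52, 7.09 and 7.31 at 96 h. The 96 h arrays lay below the lowest vehicle array, the first of them (7.52) only just. The change was -0.45 ± 0.13, or 1.36-fold lower (limma adjusted p = 0.0374), but the other 2 Eprs probes changed by 0.08 (adjusted p = 0.865) and -0.28 (adjusted p = 0.264). The Eprs call stood in 9 of 17 alternatives and was lost, among others, with the mean of its probes, without the second or the third vehicle array and without the second or the third 96 h array (adjusted p up to 0.327).

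The synthetases nearest the threshold were Iars (-0.37, adjusted p = 0.055), Gars (-0.28, adjusted p = 0.113), Cars (-0.31, adjusted p = 0.12) and Farsb (-0.28, adjusted p = 0.126). Their products charge tRNAs with isoleucine, glycine and cysteine, and FARSB is the beta subunit of the phenylalanine enzyme. Tars, the threonyl enzyme, had probes that disagreed at 96 h: its brighter probe changed by 0.39 (adjusted p = 0.203), while the other fell by 0.63 (adjusted p = 0.0406). A Qars probe other than the brightest also fell at 96 h (-0.50, adjusted p = 0.027). Over all 62 kept probes of the list, 16 fell and 1 rose at 96 h, where 6.77% of all 18897 kept probes fell. Of the 19 members with several kept probes, 14 had changes of the same sign on all of them, and Atf4, Vldlr, Eprs, Mars and Tars did not.

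Imatinib at 64 h was set against vehicle across the array labels. Of the 35 members 5 fell (14.3%) and 0 rose, where 6.08% of all genes fell and 6.33% rose. The genes that fell, by their brightest kept probes, were Nupr1, Chac1, Phgdh, Cth and Vars, and 32 of the 35 changes were negative (median -0.20, against 0.00 over all genes). Among the other kept probes of members 3 also fell, those of Asns, Qars and Vars. Imatinib and vehicle arrays did not overlap for 19 members (54.3%), against 32.3% of all genes. Without the first or the second vehicle array, or the first or the third 64 h array, 2 to 3 genes fell: the calls of Cth and Vars were lost in each of these, that of Chac1 in all except without the third 64 h array, and those of Nupr1 and Phgdh held in all 18 alternatives. The comparisons with vehicle share the same vehicle arrays.

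At 32 h against vehicle, 1 member fell, Phgdh (2.86%), and 0 rose, where 2.08% of all genes fell and 2.09% rose. At an unadjusted p under 0.05, 7 were lower (20.0%), Phgdh among them, and 0 higher, against 8.41% lower and 8.22% higher of all genes. The median change was -0.09, and 11 of 35 (31.4%) did not overlap, against 23.1% of all genes. These counts use the brightest kept probe of each gene. Among the other kept probes of members 2 also fell at 32 h, 1 of Asns and 1 of Mthfd2.

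Between 64 h and 32 h of imatinib, within 1 array label, 0 of the 35 members rose or fell by limma's test, where 0.656% of all genes rose and 0.578% fell. At an unadjusted p under 0.05, 3 were lower (8.57%) and 0 higher, against 5.55% lower and 6.03% higher of all genes. These were Nupr1 (-0.46 ± 0.13, adjusted p = 0.124), Chac1 (-0.45 ± 0.12, adjusted p = 0.126) and Sars (adjusted p = 0.39). For Nupr1 and Chac1 all 3 arrays at 64 h lay below all 3 at 32 h. Groups did not overlap for 6 members (17.1%), and the same share of all genes, 17.1%, did not overlap.

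By group means over the 4 times, 24 of the 35 members were highest in vehicle, 18 were lowest at 96 h and 10 lowest at 64 h. In 12 the mean was lower at each later time: Aldh18a1, Chac1, Cth, Ddit3, Farsb, Gars, Iars, Mthfd2, Nupr1, Qars, Trib3 and Vars. All 7 amino acid synthesis genes, 4 of 5 transcription factors and regulators, 11 of 18 synthetases and 2 of 5 stress genes were highest in vehicle. This order is a description and was not tested, and neighbouring times often lay within each other's spread. The order was not counted over all genes, so these counts cannot be read as particular to the list. It also crosses array labels between vehicle and 32 h and between 64 h and 96 h, where label and time cannot be told apart. The Cth means at the imatinib times include arrays on which it was not detected.

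Of the 26 measured members with a promoter window, the 9 with the TGATGNAA core had a median change of -0.28 at 96 h, with 3 that fell (Chac1, Nupr1 and Trib3) and 0 that rose. The 17 without it had a median of -0.26, with 5 that fell (Aldh18a1, Ddit3, Eprs, Kars and Psat1) and 1 that rose (Ppp1r15a). The core was thus present in members that fell and in members that did not pass, such as Vldlr (0.13) and Tars (0.39). The probes of both those genes disagreed in sign, and the other Tars probe fell.

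**Figure D4:**
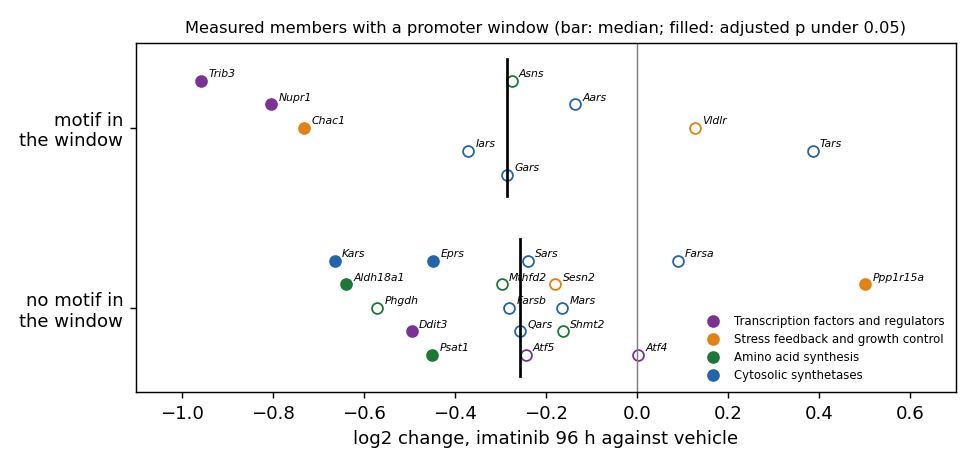
Log2 change at 96 h of imatinib against vehicle (x axis) of the 26 measured members with a promoter window, in rows by whether the window holds the TGATGNAA core; bars mark medians and filled points passed an adjusted p of 0.05. The medians, -0.28 with the core and -0.26 without it, lie close together, and Trib3, Nupr1 and Chac1 are the 3 lowest points of the upper row.

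Other genes of the pathway, from lists chosen by function with earlier results of these data known, moved in both directions at 96 h. Their counts stand against 7.37% of all genes that fell and 7.51% that rose, which in lists this small is at most about 1 gene each way. Of 11 measured genes for eIF2 kinases, eIF2, its exchange factor eIF2B and their regulators, 2 fell and 0 rose. Eif2b2, the beta subunit of eIF2B, read 7.82, 7.45 and 7.37 in vehicle, 6.85, 6.91 and 6.97 at 32 h, 6.74, 6.76 and 6.61 at 64 h and 6.80, 6.73 and 6.87 at 96 h. All imatinib arrays lay below the vehicle arrays, with changes of -0.63 at 32 h (adjusted p = 0.0123), -0.84 at 64 h (adjusted p = 0.00049) and -0.75 ± 0.13 at 96 h (limma adjusted p = 0.000995). Eif2s3x, the gamma subunit of eIF2, fell at 96 h (-0.43 ± 0.11, adjusted p = 0.0186).

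Of 10 measured amino acid transporters, 1 fell and 2 rose at 96 h. Slc6a9, the glycine transporter GLYT1, read 7.78, 7.86 and 7.74 in vehicle, 7.27, 7.47 and 7.73 at 32 h, 7.08, 7.17 and 6.55 at 64 h and 6.73, 6.93 and 6.58 at 96 h. Its 96 h arrays lay below all vehicle and 32 h arrays, with a change of -1.05 ± 0.17 (limma adjusted p = 0.000499). Slc7a6, an exchanger of cationic and neutral amino acids, rose by 0.82 ± 0.18 (adjusted p = 0.00552), and Slc38a2, a neutral amino acid carrier, by 0.39 ± 0.12 (adjusted p = 0.0397).

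Among 8 measured neighbours in serine, proline and one-carbon metabolism, 2 fell and 1 rose. Aldh1l2, a mitochondrial folate enzyme, read 8.11, 8.30 and 8.04 in vehicle, 7.41, 8.28 and 7.38 at 32 h, 7.05, 7.49 and 7.07 at 64 h and 6.84, 6.70 and 6.68 at 96 h. The second 32 h array lay within the vehicle range, and all 64 h and 96 h arrays lay below it, with a change of -1.41 ± 0.20 at 96 h (limma adjusted p = 0.000193) and -0.94 at 64 h (adjusted p = 0.00654). Shmt1, the cytosolic partner of Shmt2, fell (-0.54, adjusted p = 0.0263), and Glul, glutamine synthetase, rose (0.79 ± 0.18, adjusted p = 0.00716).

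Of 9 other genes linked to ATF4, 2 fell at 96 h and 0 rose. Gpt2, which makes alanine in mitochondria, read 7.07, 6.79 and 7.07 in vehicle, 6.38, 6.47 and 6.62 at 32 h, 6.53, 6.40 and 6.41 at 64 h and 6.44, 6.19 and 5.98 at 96 h. All imatinib arrays lay below the vehicle arrays, and the change at 96 h was -0.77 ± 0.14 (limma adjusted p = 0.00128). Cebpb, a C/EBP partner of ATF4, fell by 0.47 on the log2 scale (adjusted p = 0.0113). The median of these 9 was 0.11, against -0.26 for the 35 members.

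Of 13 measured mitochondrial synthetases 2 fell at 96 h and 0 rose, Ears2 (-0.47, adjusted p = 0.0218) and Vars2 (-0.43, adjusted p = 0.0283). The median change of the 13 was -0.03. Aimp1, a scaffold protein of the multi-synthetase complex, fell (-0.39, adjusted p = 0.0333) as 1 of 5 measured scaffold and related genes. The calls of Eif2s3x, Slc38a2, Shmt1, Ears2, Vars2 and Aimp1 stood in 9 to 13 of 17 alternatives, and each was lost without the first vehicle array and without at least 1 of the 96 h arrays. Those of Slc38a2 and Ears2 were also lost with the mean of the gene's probes. By brightest kept probes, 0 genes of these lists passed between 64 h and 32 h (0.578% of all genes fell, 0.656% rose). At 32 h against vehicle, across the array labels, Eif2b2 alone passed by these probes, where 2.08% of all genes fell and 2.09% rose. At 64 h against vehicle, also across the array labels, 6.08% of all genes fell and 6.33% rose. There 2 of 10 transporters rose and 1 fell. Also lower were 1 of 11 genes of the eIF2 list and 2 of 9 other ATF4-linked genes. Likewise 2 of 13 mitochondrial synthetases and 1 of 8 one-carbon neighbours fell.

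**Figure D5:**
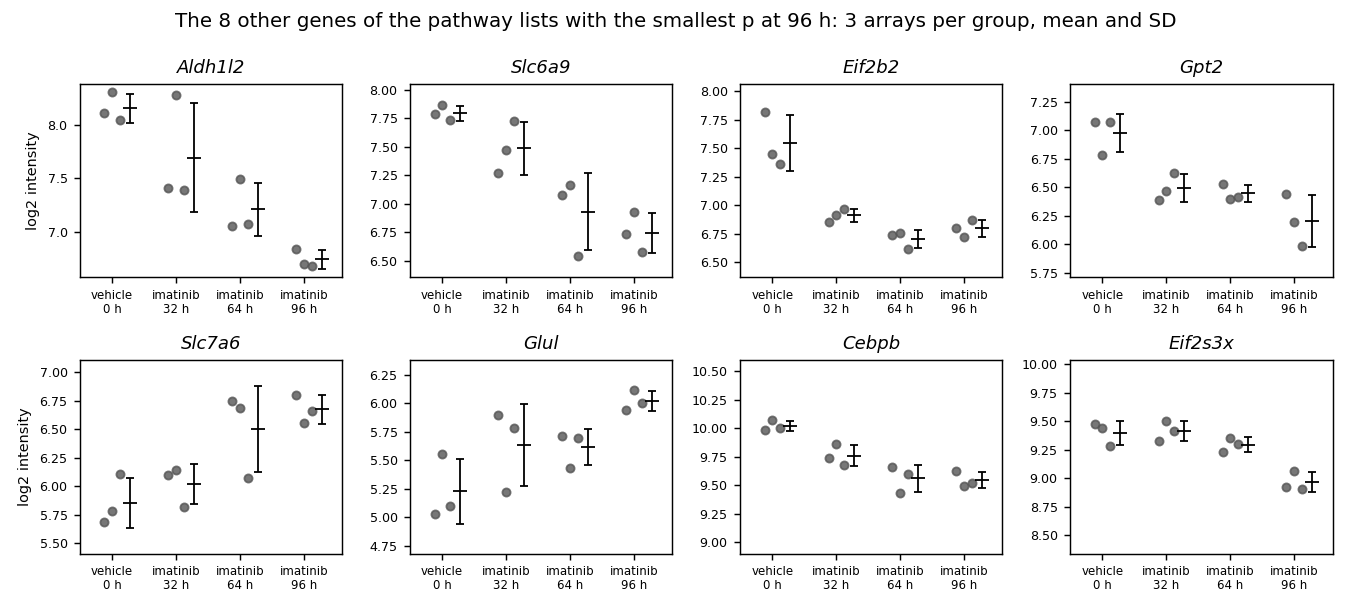
Log2 intensity (y axis) in vehicle at 0 h and after 32, 64 and 96 h of imatinib (x axis) of the 8 genes of the wider pathway lists with the smallest p at 96 h, with 1 point per array and the mean and SD of 3 arrays beside them. Slc7a6 and Glul lie higher at 96 h than in vehicle, and the other 6 genes lie lower.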

How the data were processed

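The deposited non-normalized file holds, per the file headers, the linear intensity of each probe and a detection p-value on each of 12 arrays. Limma is named in the submitters' processing notes. Settings and scanner software: not given in the sources used here. The authors also deposited normalized intensity values, whose log2 differed from those computed here by at most 0.0193.

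Values were computed in R 4.3.3 with limma 3.58.1 and the package data.table (1.17.8): neqc background correction from the detection p-values, an offset of 16, quantile normalization and log2. Probes were named through the platform annotation (of 45281, 34885 with a single symbol, 18 with several, 10378 with none). For each gene the brightest kept probe on average stands for it. Group means of all 12 arrays were fitted with lmFit and eBayes (8 residual degrees of freedom), with Benjamini-Hochberg adjustment over 18897 kept probes. The procedure was tested on simulated data. Errors are SE of the fit or SD over 3 arrays, and the number of arrays limits the precision. Values per array are given for Atf4 and for members that passed in at least 1 comparison; from each wider list, up to 4 genes that passed at 96 h, by p. Members and lists were chosen with earlier results of these data known. Promoter windows come from RefSeq (GRCm38.p6); the matches of 1 gene are not reported here. Figures were drawn with Python 3.11.15, pandas 2.3.3 and matplotlib 3.10.9.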

Additional observations from a re-analysis of the deposited data

How the results depend on the processing

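Of the 11 members called at 96 h, 7 stayed called in all 17 alternatives (Nupr1, Trib3, Chac1, Aldh18a1, Cth, Kars and Vars), and no called value changed sign. The median change of the 35 members at 96 h ranged from -0.28 to -0.21. Without background correction more members fell: against vehicle 17 at 96 h, 13 at 64 h and 2 at 32 h, and 2 between 64 h and 32 h; the cause was not tested. An offset of 50 gave 2 between 64 h and 32 h (Nupr1 and Chac1) and 8 at 64 h against vehicle, and the mean of a gene's probes gave 8 at 64 h. Fitting only the 6 arrays compared, with fewer samples, left 0 at 32 h and 3 at 64 h, and no detection filter left 0 at 32 h. Leaving out each array in turn gave 0 to 1 that rose at 96 h, 0 to 1 that fell at 32 h and 2 to 5 that fell at 64 h against vehicle. Array weights and leaving out both arrays that stood apart were chosen after seeing the data; without those arrays there were 0 at 32 h and 3 at 64 h. Probes near background, such as that of Cth, give only bounds.

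Same-numbered arrays hardly deviated together (correlations of -0.02 to 0.05 over 18 pairs). Arrays of unlike number had correlations of -0.04 to 0.04 over 36 pairs. The labels' numbers are therefore not taken as pairs, although 7 of 12 arrays correlated best with an array of their own number. With the replicate number as a block, 8 members fell and 1 rose at 96 h; Psat1 and Eprs were no longer called.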
